A study of Bos taurus with 15 samples.

Results

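The genes described here encode the proteasome, and comprise every row of the 6 comparison tables whose name is PSM followed by a letter from A to G and a digit. The pattern matched 46 of the 13896 genes, by name and without use of any measured value. One match, PSMC3IP, encodes a recombination protein of meiosis and is counted apart. Of the 46, 44 reached a mean normalised exon count of 50 over the 15 libraries, as did 9015 of all genes. The 2 that did not were PSMB11, the thymic beta subunit, and PSMC3IP. RNA came from subcutaneous adipose tissue (dewlap) of primiparous Prim Holstein cows in 5 groups of 3 libraries. One group was sampled 1 month before calving, before the diets began. The others received a low energy (LE) or a high energy (HE) diet from that time and were sampled at 1 or 16 weeks after calving (wkpp), and all groups were of the same breed and parity. The labels give the diet, which sets the groups here, while the study's methods sort cows by energy balance at 1 wkpp into SNEB, with a severe deficit, and MNEB, with a moderate one, and took the more extreme cows of each for sequencing, so the libraries are not a random draw. Per those methods every animal was biopsied at all 3 times, so libraries of different times can come from the same cow, but the tables do not tell which.

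The 26S proteasome degrades proteins tagged with ubiquitin. Its 20S core is a barrel of alpha and beta rings, in which PSMB5, PSMB6 and PSMB7 carry the chymotrypsin-like, caspase-like and trypsin-like sites. The 19S particle caps the core: its base holds the PSMC ATPases and the scaffold proteins PSMD1 and PSMD2, and its lid holds the deubiquitinase PSMD14. Under interferon, PSMB8, PSMB9 and PSMB10 replace PSMB5, PSMB6 and PSMB7 to form the immunoproteasome, and PSME1 and PSME2 form the PA28 activator, which is tied to antigen presentation.

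Reads of single libraries were computed from the deposited group means, as described under the processing, and libraries carry no name within a group. Gene reads on exons ran from 7453404 to 14147704 per library before diet and in LE, and from 1968987 to 7271217 in HE. Synthetic spike-in RNA took 18.5 to 39.8% of the authors' mean exonic counts in the 4 tables with HE libraries and 3.83 to 4.96% in the 2 without. The HE libraries thus stood apart in depth and in spike-in share, which cannot be told apart from the diet. In the study's own summary, every MNEB library had a lower share of aligned reads than every SNEB library and every library before calving. The labels do not say which diet group is MNEB. Sample titles carry the code m2 for LE at 1 wkpp and HE at 16 wkpp and m1 for the other groups, with no meaning given. Adipocyte markers (8 of 9 fixed markers were in the tables, PLIN1, FABP4 and LEP among them, but not ADIPOQ) were read in every group, with summed levels of 48007 to 57884 before diet, 19498 to 56352 in HE and 72260.5 to 87872 in LE at 1 wkpp, and 9677 to 40023 in HE and 42524 to 48803 in LE at 16 wkpp. FABP4 and PLIN1 held most of the adipocyte sums, and single markers went both ways. From before diet to LE at 1 wkpp, mean levels of PLIN1, FABP4 and LIPE rose and those of LEP, CIDEC, CIDEA, PPARG and AQP7 fell. Mean FABP4 went from 20340 to 44373 and mean LEP from 1284 to 491. The 6 macrophage markers summed to 5394 to 7656, 2096 to 7344, 8024 to 12858, 2058 to 2402 and 10968 to 14402 in the group order of the adipocyte sums. Sums of the 8 muscle markers were 87.5 to 359 before diet and 1175 to 4105 in HE at 1 wkpp, of which TNNT3 held 1169, 1499 and 3939, and 1698 to 3791 in HE at 16 wkpp. In LE they were 109 to 311 at 1 and 232 to 339 at 16 wkpp, so every HE library lay above every other library. The 5 endothelial markers summed to 19268 to 23443 before diet, 29702 to 63247 in HE and 29469 to 36585 in LE at 1 wkpp, and 23699.9 to 34011 in HE and 22208 to 25390 in LE at 16 wkpp. Sums of T cell markers were 186 to 261 before diet, 78.3 to 180.1 in HE and 95.3 to 244 in LE at 1 wkpp, and 83.1 to 100.2 in HE and 116 to 372 in LE at 16 wkpp. B cell markers gave 26.3 to 45.8, 35.1 to 118, 18.9 to 72.2, 8.12 to 84.8 and 19.4 to 70.7 in that order, and erythrocyte markers 33.6 to 291, 16.7 to 334, 13 to 47, 17.6 to 83.9 and 12.2 to 12.5. Keratinocyte markers, a sign of skin, gave 121 to 286 before diet, 6.25 to 268 in HE and 2.61 to 5.95 in LE at 1 wkpp, and 0 to 50.9 in HE and 2.45 to 8.31 in LE at 16 wkpp. The part of cell makeup, depth, spike-in share and share of aligned reads in the results below was not tested. In bulk tissue fewer cells of a type and less RNA per cell cannot be told apart.

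All 46 genes together, PSMC3IP included, took 0.337, 0.382 and 0.332% of the exon reads counted above in the libraries before diet. The share was 0.293, 0.289 and 0.245% in HE and 0.345, 0.349 and 0.35% in LE at 1 wkpp. At 16 wkpp it was 0.358, 0.338 and 0.32% in HE and 0.383, 0.385 and 0.335% in LE. The 3 libraries of HE at 1 wkpp lay below all others. The share needs no normalisation between libraries. Levels below are exon reads divided by a size factor, given as normalised counts, and they are not corrected for gene length, so levels are compared between groups for 1 gene and not between genes.

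A gene was called when limma voom, fitted to the 6 libraries of a comparison, gave an adjusted p below 0.01 (Benjamini-Hochberg over 9015 genes) for exon reads and for whole gene reads with the same sign. The pairing and the limit of 0.01 in both kinds of reads follow the study, which tested with DESeq2; limma voom, the count minimum and the condition of the same sign were set here. By this rule 0 of the 44 genes were called in each of the 6 comparisons. Libraries were also simulated at the depth of before diet and HE at 1 wkpp, with 8804 of 9000 genes left unchanged. In them the exon fit called 2.04% of 98 genes changed 2-fold and 42.9% of 98 genes changed 4-fold. The share called where more genes change, or with the spread of these 2 groups alone, was not tested. The other 5 comparisons and the fit to whole gene reads were not simulated. Counts by other rules are given beside the count of called genes as descriptions. A gene is said not to overlap between groups when all 3 libraries of one lay above all 3 of the other, and to pass 1.5-fold when the ratio of group means did so for exon and whole gene levels in the same direction.

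**Figure D1:**
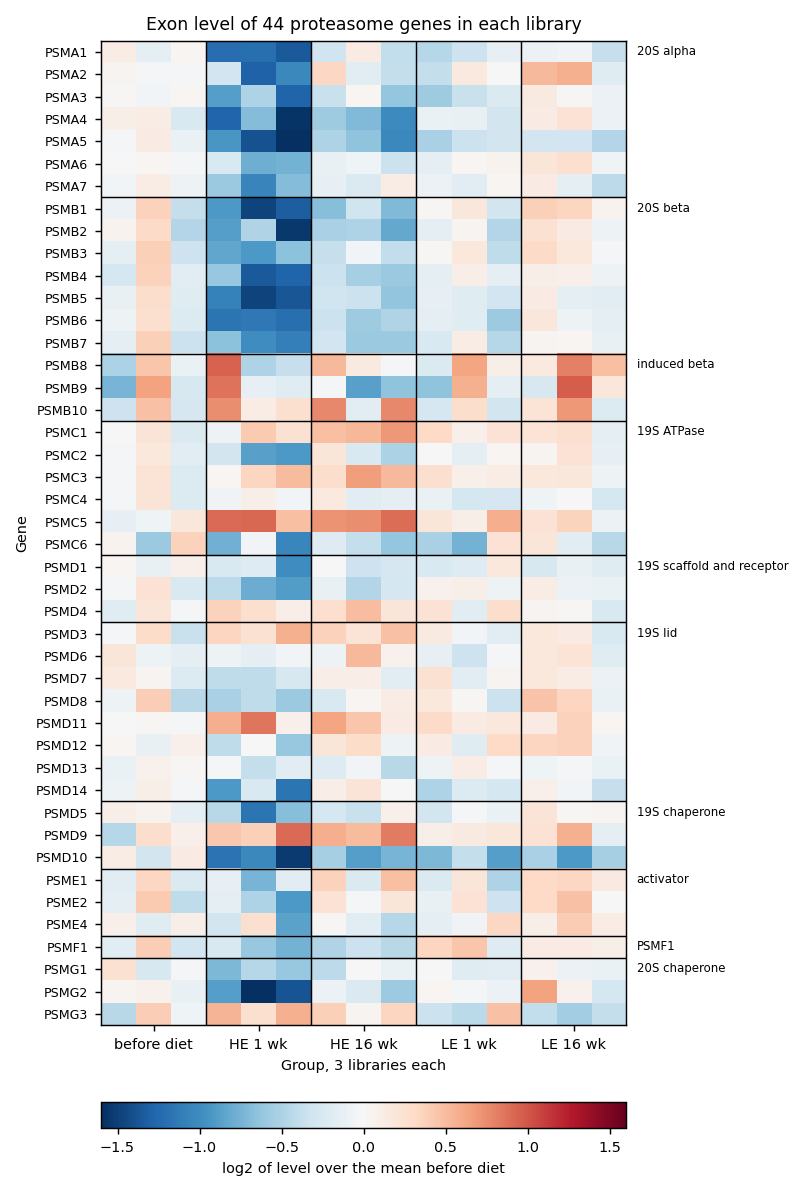
Exon level of the 44 genes in each library (columns, 3 per group) as log2 of the level over the mean before diet, with genes in rows by subcomplex; blue is lower and red is higher. The 14 core genes of the upper blocks are blue in HE at 1 wkpp, and PSMB8, PSMB9 and PSMB10 differ between libraries of 1 group.

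Before diet against HE at 1 wkpp, the 20S core genes were lower in HE, while the 19S genes went both ways. All 14 core genes did not overlap and were lower in HE, with log2 ratios of mean exon levels (before diet over HE) from 0.57 for PSMA6 to 1.38 for PSMA5 and a median of 0.97. It was 0.85 in the alpha ring, which gates the barrel, and 1.04 in the beta ring, which holds the active sites. The median was 0.18 for the 17 genes of the 19S base and lid and 0.038 for all 9015 genes. Of the 44 genes, 23 were higher before diet without overlap, where 24.9% of all genes were. Another 3, PSMC5, PSMD9 and PSMD11, were lower before diet without overlap, against 25.2% of all genes. Past 1.5-fold in both kinds of level there were 17 higher before diet and 1 lower, PSMC5, against 16.9% and 18.1% of all genes. Without the shallowest HE library these were 11 and 1, beside 34.2% of all genes in either direction. They were 12 and 4 without the library of middle depth before diet, beside 35.9%.

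The 3 highest log2 ratios of the 44 genes were 1.38 for PSMA5, 1.34 for PSMG2 and 1.3 for PSMB5, and the 3 lowest -0.78 for PSMC5, -0.59 for PSMD9 and -0.54 for PSMD11. The called count of 0 in this comparison stood beside 7.42% of all genes called. At an unadjusted p below 0.05 in both kinds of reads, 15 of the 44 genes passed, 14 of them higher before diet, where 30.5% of all genes passed in either direction. With adjusted p below 0.05 in both, 6 were higher before diet and 1, PSMC5, was lower, against 8.2% and 9.73% of all genes. In 1 limma fit of all 15 libraries, 5 genes (PSMA1, PSMA4, PSMA5, PSMB5 and PSMB6) were called higher and PSMC5 lower before diet at 0.01, against 5.56% and 8.64% of all genes. The calls therefore depended on the fit.

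Among alpha ring genes, PSMA1 was read at 626, 518 and 592 before diet and at 249, 251 and 228 in HE at 1 wkpp, with 239, 93 and 62 reads in the latter. It was 423, 458 and 527 in LE at 1 wkpp, and 465, 635 and 439 in HE and 544, 555 and 449.8 in LE at 16 wkpp. HE at 1 wkpp was thus below every other library. The limma log2 difference, before diet over HE, was 1.24 (SE 0.22) for exon reads with adjusted p = 0.00201, and 1.00 (SE 0.23) for whole gene reads with adjusted p = 0.0157, so the gene met the threshold for exons only.

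PSMA5, another alpha subunit, had the largest ratio of all 44 genes, from 553, 621 and 529 before diet to 297, 216 and 139.6 in HE at 1 wkpp. Its exon log2 difference was 1.33 (SE 0.28) in limma, adjusted p = 0.00531, and that of whole gene reads 0.90 (SE 0.26), adjusted p = 0.0357. The 3 HE libraries at 1 wkpp spread more than those of PSMA1 and overlapped with HE at 16 wkpp (402, 362 and 279). PSMA4 was 534 ± 73.5 (SD, n = 3) before diet and 244 ± 77.3 in HE at 1 wkpp. PSMA2, with 87, 17 and 15 exon reads in HE at 1 wkpp, was the core gene with the fewest reads, and its level of 90.7, 45.9 and 55.1 there carries the widest counting error.

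Of the catalytic beta subunits, PSMB5 was 463, 610.5 and 439 before diet, 239, 181 and 195 in HE and 461, 439.8 and 406 in LE at 1 wkpp. Its log2 difference, before diet over HE, was 1.25 (SE 0.26) in limma for exons (adjusted p = 0.0043; 0.0447 for whole gene reads). PSMB6 was 474, 595 and 429.8 before diet, 222, 227 and 217 in HE and 452, 436 and 334 in LE at 1 wkpp, and its 3 HE libraries nearly coincided. Its exon log2 difference was 1.16 (SE 0.24), with a limma adjusted p of 0.00446 for exons and 0.0358 for whole gene reads. PSMB7 had levels of 656, 942 and 571 before diet and 461, 362 and 338 in HE at 1 wkpp, and its adjusted p was 0.0303 for exons and 0.121 for whole gene reads in limma.

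**Figure D2:**
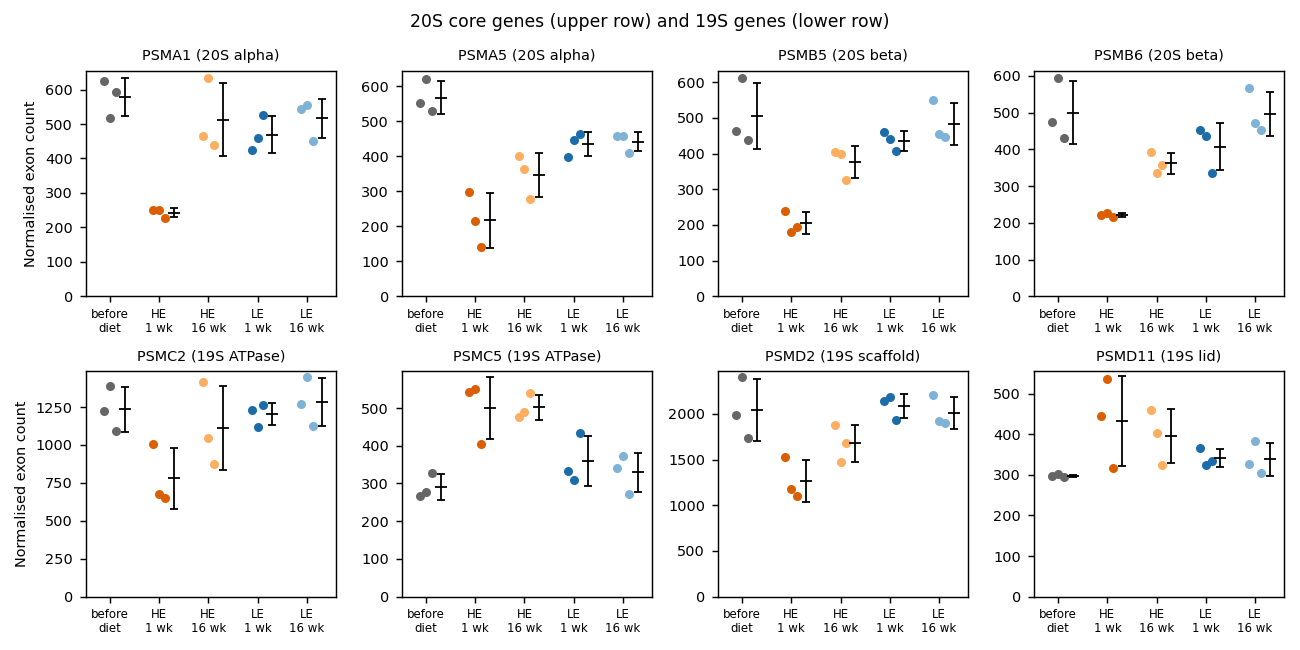
Normalised exon counts of 4 core genes (upper row) and 4 genes of the 19S particle (lower row) in each library, by group; points are libraries and the black mark is the mean with SD (n = 3). The core genes are lowest in HE at 1 wkpp, while PSMC5 is highest in the HE groups.

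Among the 19S base ATPases, which unfold substrates and open the core, log2 ratios of mean levels, before diet over HE at 1 wkpp, lay on both sides of 0, from -0.78 for PSMC5 to 0.66 for PSMC2, and 5 of the 17 genes of the 19S base and lid were lower and 2 higher in HE without overlap, against 24.9% and 25.2% of all genes. PSMC2 was 1222, 1386 and 1094 before diet and 1009, 678 and 650.4 in HE at 1 wkpp, without overlap, and its limma log2 difference was 0.67 (SE 0.24) with adjusted p = 0.0535. PSMC5 went the other way, with 266, 277 and 329 before diet and 543, 551 and 404 in HE at 1 wkpp, and 477, 488 and 539 in HE against 342, 373 and 272 in LE at 16 wkpp. Its exon log2 difference, before diet over HE, was -0.80 (SE 0.22), adjusted p = 0.0185 in limma, and 0.0219 for whole gene reads. PSMC1, PSMC3 and PSMC4 overlapped between these groups, with log2 differences of -0.19 (SE 0.22), -0.29 (SE 0.22) and 0.00144 (SE 0.22). PSMC6, at 339, 215 and 420.4 before diet and 191, 316 and 158 in HE, overlapped as well.

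The scaffold gene PSMD2 was 1993, 2402 and 1732 before diet and 1530.1, 1175 and 1099 in HE at 1 wkpp, without overlap. The ubiquitin receptor PSMD4 was 411, 538 and 458 before diet and 606, 559 and 503 in HE, with overlap. In the lid, log2 ratios before diet over HE ran from -0.54 for PSMD11 to 0.72 for PSMD14, with a median of 0.25 over 8 genes. PSMD11 was 297, 301 and 294 before diet and 445, 538 and 316 in HE, higher in HE without overlap, but its whole gene log2 difference was -0.20 (SE 0.24) against -0.53 (SE 0.24) for exons, and limma's adjusted p was 0.107 for exons. PSMD14, the deubiquitinase, was 421 ± 27.4 before diet and 255 ± 89.4 in HE (SD, n = 3), with an adjusted p of 0.0378 for exons and 0.0763 for whole gene reads.

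The ratio of core to 19S reads within a library does not depend on scaling between libraries. Reads of the 14 core genes per read of the 17 genes of the 19S base and lid were 0.683, 0.746 and 0.679 before diet and 0.437, 0.364 and 0.365 in HE at 1 wkpp. They were 0.497, 0.524 and 0.469 in HE at 16 wkpp, 0.592, 0.71 and 0.578 in LE at 1 wkpp and 0.717, 0.685 and 0.708 in LE at 16 wkpp. All 6 HE libraries lay below all 9 others, and those at 1 wkpp below those at 16 wkpp. With reads on entire genes the 6 HE libraries again lay below the other 9, and the HE libraries overlapped one another, at 0.604, 0.475 and 0.47 at 1 wkpp and 0.629, 0.605 and 0.564 at 16 wkpp. Since the genes were grouped with their values known, no test was run on this ratio.

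**Figure D3:**
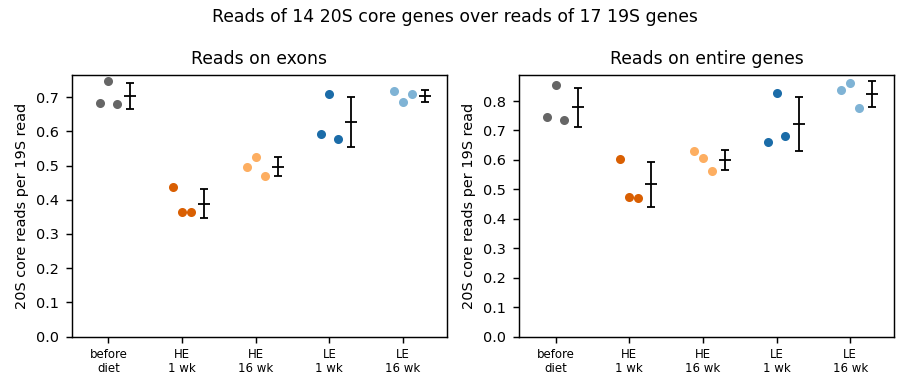
Exon reads (left) and entire gene reads (right) of 14 core genes per read of 17 genes of the 19S base and lid, one point per library, with mean and SD (n = 3) in black. The 3 libraries of HE at 1 wkpp hold the lowest exon ratios, and the 6 HE libraries lie below the others on the left.

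LE against HE at 1 wkpp compares the diets soon after calving. Core genes were lower in HE, with a median log2 ratio (LE over HE) of 0.82 against 0.19 for the 19S genes and 0.086 for all genes. The 19S median was -0.00672 without the shallowest LE library. Of the 14, 12 did not overlap; PSMA2 and PSMA3 overlapped. Of the 44 genes, 21 were higher in LE without overlap and 3 (PSMC4, PSMD3 and PSMD9) lower, against 21.3% and 21.1% of all genes. Past 1.5-fold there were 15 higher and 0 lower, against 14.6% and 12.9%. Centred on the median of all genes these were 6 and 1, beside 26.8% of all genes in either direction, and without the shallowest HE library 8 and 1, beside 25.4%. They were 12 and 2 without the LE library of middle depth, 15 and 2 without the shallowest LE library and 13 and 2 without the HE library of middle depth. Of all genes 27.2, 28.9 and 28.9% passed in these. The rule on adjusted p called 0 members and 0% of all genes, and 15 members passed an unadjusted p below 0.05 in both kinds of reads, all higher in LE, where 22.9% of all genes passed in either direction. PSMB1, a beta ring gene, was 1028, 1157 and 829 in LE and 536, 365 and 408 in HE, a limma log2 difference of 1.18 (SE 0.24) with adjusted p = 0.0138 for exons and 0.0608 for whole gene reads. Log2 ratios were highest at 1.31 for PSMG2, 1.204 for PSMB1 and 1.09 for PSMB5, and the lowest -0.50 for PSMG3, -0.48 for PSMC5 and -0.47 for PSMB10. The comparison shares its HE libraries with that of before diet with HE, so the counts of the comparisons are not independent.

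HE at 1 against 16 wkpp follows the HE diet over lactation. Mean exon levels of all 14 core genes were lower at 1 wkpp, 8 without overlap and 5 past 1.5-fold, against 10.9% and 7.85% of all genes. The core median log2 ratio (1 over 16 wkpp) was -0.61, with a 19S median of -0.25 and a median of all genes of 0.00387. PSMA1 had the lowest log2 ratio of the core at -1.08, and PSMB2 the highest at -0.31. Without overlap, 17 of the 44 genes were lower and 0 higher at 1 wkpp, against 10.9% and 9.55% of all genes. Past 1.5-fold, 7 were lower and 1 (PSMB9) higher, against 7.85% and 6.92%. There were 14 lower and 0 higher without the deepest library at 1 wkpp, 12 and 1 without the shallowest at 16 wkpp and 12 and 1 in whole gene levels alone, beside 18.1, 17.2 and 22.4% of all genes in either direction. The test called 0 members and 0% of all genes, and 9 members passed an unadjusted p below 0.05 in both kinds of reads, all lower at 1 wkpp, beside 9.26% of all genes in either direction. The highest log2 ratios were 0.74 for PSMB9, 0.20 for PSMG3 and 0.13 for PSMD11, and the lowest -1.08 for PSMA1, -1.05 for PSMG2 and -0.88 for PSMB5. The smallest adjusted p of a member in limma was 0.198 for exons, for PSMA1.

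LE at 1 against 16 wkpp showed smaller differences, with a core median log2 ratio of -0.19 and a 19S median of -0.018, beside 0.012 for all genes. Without 1 library at a time the core median ran from -0.31 to -0.13 and the 19S median from -0.094 to 0.029. The core value was farthest from 0 without the LE library of middle depth at 1 wkpp, and the 19S median changed sign without that library or either of the 2 deeper LE libraries at 16 wkpp. Without overlap, 4 genes (PSMA3, PSMA4, PSMB6 and PSMD5) were lower at 1 wkpp and 0 higher, against 4.19% and 8.2% of all genes. In whole gene levels 0 were lower and 1 was higher at 1 wkpp without overlap, beside 11.9% of all genes in either direction. The median log2 ratio of whole gene levels stayed below 0, at -0.22 for the core and -0.15 for the 44 genes. None passed 1.5-fold in either direction (0 lower and 0 higher, against 2.2% and 4.12% of all genes). The test called 0 members and 0% of all genes, and 0 members passed an unadjusted p below 0.05 in both kinds of reads, beside 4.97% of all genes. At the upper end log2 ratios were 0.40 for PSMG3, 0.18 for PSMD4 and 0.13 for PSMC5, and the lowest -0.42 for PSME1, -0.41 for PSMA3 and -0.40 for PSMA2. PSMA3, lower at 1 wkpp, was 414, 483 and 522 against 682, 626 and 579 at 16 wkpp, a limma log2 difference of -0.44 (SE 0.15). In the fit of all 15 libraries, the change from 1 to 16 wkpp did not pass adjusted p below 0.01 between LE and HE in both kinds of reads for any of the 44 genes (0 called, as were 0 of all 9015 genes, and 3 members at an unadjusted p below 0.05 in both, beside 3.48% of all genes), with a median of 0.24 for the log2 difference of 1 over 16 wkpp in LE minus that in HE.

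Before diet against LE at 1 wkpp gave a core median log2 ratio of 0.17 and a 19S median of -0.00603, beside -0.051 for all genes. Leaving out 1 library moved the core median over 0.034 to 0.28 and the 19S median over -0.072 to 0.048. The core value was lowest without the library of middle depth before diet and highest without the shallowest before diet, and it was 0.10 without the shallowest in LE. The 19S median turned above 0 without the deepest or the shallowest library before diet, or without the deepest or the middle one in LE. Without overlap, 4 genes (PSMA3, PSMA5, PSMD10 and PSMD14) were higher before diet and 1 (PSMD11) lower, against 9.75% and 10% of all genes. In whole gene levels 1 was higher and 2 were lower, beside 16.4% of all genes in either direction. Past 1.5-fold there were 0 higher and 0 lower, against 5.69% and 4.89%. The test called 0 members and 0.111% of all genes, and 1 member, PSMD10, passed an unadjusted p below 0.05 in both kinds of reads, beside 10.3% of all genes. Ratios on the log2 scale were highest at 0.64 for PSMD10, 0.38 for PSMA5 and 0.38 for PSMA3, and the lowest -0.31 for PSMC5, -0.22 for PSMF1 and -0.21 for PSMC1. PSMD10, a chaperone of base assembly also known as gankyrin, was 138, 104 and 140.1 before diet and 77.3, 97.9 and 69.2 in LE, a limma log2 difference of 0.63 (SE 0.24) with adjusted p = 0.267. It was lower than before diet in every later group in mean level, down to 56.3, 62.1 and 44.1 in HE at 1 wkpp.

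LE against HE at 16 wkpp gave a core median log2 ratio (LE over HE) of 0.40, a 19S median of -0.061 and 0.02 for all genes. Of the 14 core genes, 13 had a higher mean in LE and 1, PSMA7, a lower one. The core median at 1 wkpp was 0.82, and 0 members were called for the difference between the 2 times. The core median was 0.31 to 0.51 without 1 library at a time and the 19S median -0.12 to 0.055. The 19S median turned above 0 without the deepest HE library or without the shallowest LE library, and was -0.12 and -0.11 without the LE library of middle depth and the shallowest HE library. Without overlap, 13 of the 44 genes were higher in LE, 10 of them core genes, against 23% of all genes. Another 6 were lower in LE, against 22.6%. In whole gene levels 6 were higher and 5 lower in LE, beside 40% of all genes in either direction. Past 1.5-fold there were 3 higher (PSMA4, PSMB1 and PSMB2) and 2 lower (PSMC5 and PSMG3), against 11.6% and 14.7%. These were 1 and 2 without the LE library of middle depth and 1 and 1 without the shallowest HE library, beside 27.7 and 24.7% of all genes in either direction. The test called 0 members and 6.62% of all genes. At adjusted p below 0.05 in both it had 2 higher in LE, PSMA4 and PSMB1, and 1 lower, PSMC5, against 6.17% and 10.8%, and 7 passed an unadjusted p below 0.05 in both, beside 28.2% of all genes. Of the 44 log2 ratios the highest were 0.86 for PSMB9, 0.85 for PSMA4 and 0.82 for PSMB1, and the lowest -0.70 for PSMG3, -0.61 for PSMC5 and -0.45 for PSMC1. PSMA4 was 585, 625 and 501 in LE and 359, 326 and 263 in HE, a limma log2 difference of 0.82 (SE 0.18) with adjusted p = 0.0123 for exons and 0.0432 for whole gene reads. PSMB1 was 1319, 1285 and 1054 in LE and 634, 815 and 623 in HE, with 0.83 (SE 0.18) and limma adjusted p = 0.009999 for exons and 0.0467 for whole gene reads. PSMC1 was 1019, 1053 and 798 in LE and 1226, 1269 and 1416 in HE, without overlap.

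**Figure D4:**
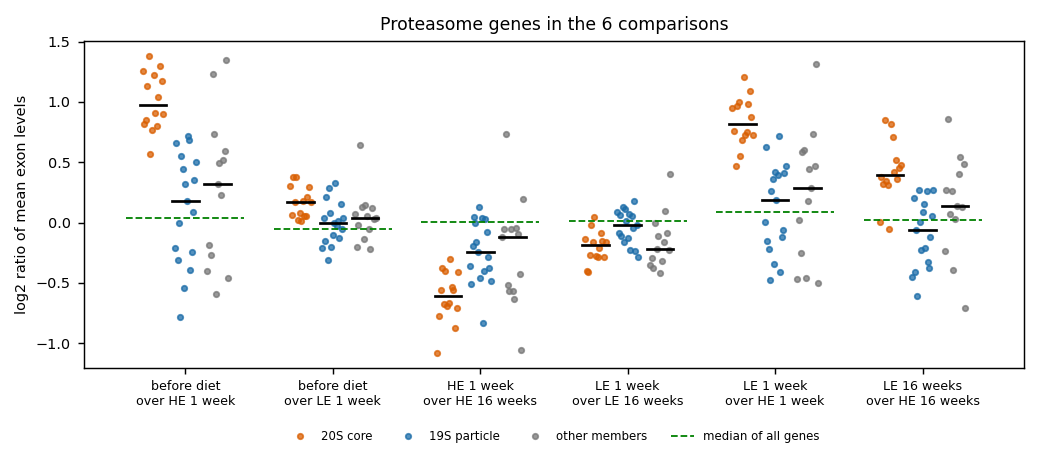
Log2 ratio of mean exon levels for each of the 44 genes in the 6 comparisons, by subcomplex; short black bars are medians and dashed green bars the median of all genes. The core medians are 0.97 and 0.82 where before diet and LE are set over HE at 1 wkpp, above the 19S medians of 0.18 and 0.19 (base and lid together).

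The levels of the induced beta subunits spread widely between libraries of 1 group. PSMB8 was 275, 532 and 362 before diet, 753, 276 and 301 in HE and 331, 603 and 415 in LE at 1 wkpp, and 560.3, 432 and 384 in HE and 434, 681 and 543 in LE at 16 wkpp. The groups overlapped, and its limma log2 difference, before diet over HE at 1 wkpp, was -0.20 (SE 0.40), adjusted p = 0.73. PSMB9 was 47.8, 125 and 67.3 before diet. It was 146, 72.9 and 69.8 in HE and 51.3, 119 and 72.5 in LE at 1 wkpp, and 78.2, 43.7 and 51.4 in HE and 67, 157 and 91 in LE at 16 wkpp, so its groups overlapped too. PSMB10 was 222, 386 and 232 before diet, 469, 303 and 334 in HE and 233, 339 and 228 in LE at 1 wkpp, a log2 difference before diet over HE of -0.46 (SE 0.30), adjusted p = 0.253. One HE library at 1 wkpp, the deepest, held the highest PSMB8, PSMB9 and PSMB10 of its group, and without it the log2 difference of PSMB8 was 0.42 and that of PSMB9 0.066, both above 0. PSMB11 had 0 exon reads in every library before diet and in LE at 1 wkpp, where a count of 0 allows up to 3 reads, and 1, 2 and 0 in HE at 1 wkpp.

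Set against the subunit each replaces, the induced genes gave ratios within a library that need no scaling. Reads of PSMB8 per read of PSMB5 were 0.594, 0.872 and 0.823 before diet, 3.15, 1.52 and 1.55 in HE and 0.718, 1.37 and 1.02 in LE at 1 wkpp. For PSMB9 per PSMB6 the ratios were 0.101, 0.21 and 0.157 before diet, 0.657, 0.321 and 0.322 in HE and 0.114, 0.273 and 0.217 in LE at 1 wkpp. For PSMB10 per PSMB7 they were 0.338, 0.41 and 0.406 before diet, 1.02, 0.836 and 0.989 in HE and 0.382, 0.433 and 0.431 in LE at 1 wkpp. For all 3 pairs, HE at 1 wkpp lay above before diet and LE at 1 wkpp without overlap, and PSMB5, PSMB6 and PSMB7 were themselves lowest in that group. At 16 wkpp, HE and LE overlapped for PSMB8 per PSMB5, with 1.38, 1.08 and 1.18 in HE and 0.788, 1.5 and 1.22 in LE. PSMB9 per PSMB6 was 0.2, 0.13 and 0.144 in HE and 0.118, 0.333 and 0.201 in LE at 16 wkpp. PSMB10 per PSMB7 was 0.815, 0.519 and 0.994 in HE and 0.438, 0.616 and 0.362 in LE. HE at 1 wkpp thus lay above every library at 16 wkpp for PSMB8 per PSMB5 only. PSMB8 and PSMB9 flank the peptide transporter gene TAP1 in the RefSeq annotation of ARS-UCD2.0, and TAP1 was 221, 407 and 272 before diet and 960.0, 421 and 412 in HE at 1 wkpp, with the same library highest as for PSMB8.

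**Figure D5:**
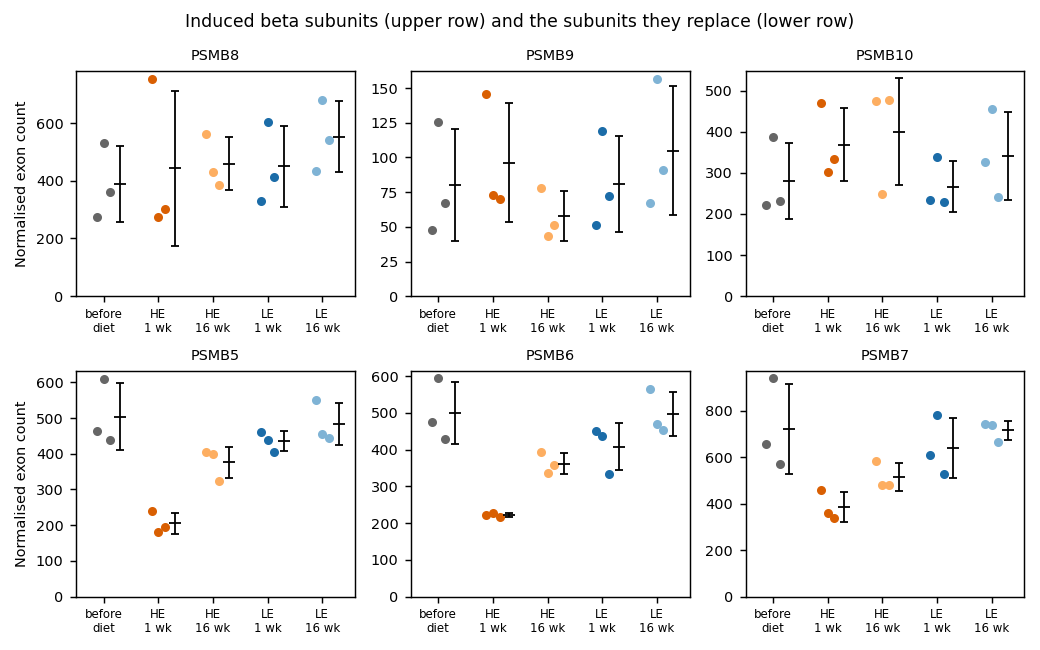
Normalised exon counts of PSMB8, PSMB9 and PSMB10 (upper row) and of PSMB5, PSMB6 and PSMB7, which they replace (lower row), one point per library with mean and SD (n = 3) in black. The upper row shows wide spread within groups, and the lower row is lowest in HE at 1 wkpp.

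Among activators, PSME1 was 533, 755 and 508 before diet, 546, 357 and 533 in HE and 509, 688 and 424 in LE at 1 wkpp, and 776, 511 and 834 in HE and 748, 751 and 663 in LE at 16 wkpp. Its partner PSME2 was 398, 587 and 333 before diet, 393, 311 and 232 in HE and 405, 518 and 349 in LE at 1 wkpp, then 517, 429 and 501 in HE and 547, 605 and 436 in LE. In limma their log2 differences before diet over HE were 0.32 (SE 0.26) and 0.42 (SE 0.30), with adjusted p = 0.36 and 0.296, and the groups overlapped. PSME4, the PA200 activator, was 1714, 1414 and 1718 before diet and 1314, 1924 and 893 in HE at 1 wkpp, which overlapped. The inhibitor gene PSMF1 was 468, 468 and 458 in LE and 306, 337 and 314 in HE at 16 wkpp, without overlap for exons, with limma adjusted p = 0.0275 for exons and 0.649 for whole gene reads.

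Of the 3 chaperones that assemble the core, PSMG1 and PSMG2 were lower in HE at 1 wkpp than before diet without overlap, and PSMG3 overlapped with a higher mean in HE. PSMG1 was 285, 203 and 236 before diet and 147, 176 and 158 in HE, a limma log2 difference of 0.60 (SE 0.25) with adjusted p = 0.0894 for exons and 0.345 for whole gene reads. PSMG2 was 109, 111 and 97.2 before diet and 57.3, 27 and 40.4 in HE at 1 wkpp, on 55, 10 and 11 reads, with a log2 difference of 1.28 (SE 0.36) for exons (limma adjusted p = 0.0188) and 0.48 (SE 0.30) for whole gene reads. PSMG3 was 96.8, 77.1 and 94.8 in HE and 56.6, 50.8 and 57.4 in LE at 16 wkpp, higher in HE without overlap, with adjusted p = 0.0525 for exons. PSMD9, a chaperone of base assembly, was 137, 229 and 199 before diet and 254, 246 and 353 in HE at 1 wkpp, while its whole gene log2 difference was -0.20 (SE 0.25) against -0.57 (SE 0.28) for exons.

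Reads on entire genes, which add introns, exceeded those on exons by different factors. In the authors' means the ratio of whole gene to exon counts had a median of 1.35 over the 44 genes and 1.7 over all genes. Over the 44 it ran from 1.04 for PSME1 to 5.32 for PSMD14. Each kind of count had its own size factors. The core median log2 ratio of whole gene levels was 0.83 before diet over HE at 1 wkpp and 0.68 for LE over HE at 1 wkpp, below the exon values. The 19S medians of whole gene levels were 0.18 and 0.27 in these comparisons. In ARS-UCD2.0, another assembly than that of the files, 15 of the 46 genes overlap an annotated gene, PSMB5 with PSMB11, PSMB10 with LCAT and PSMG2 with PTPN2 among them, and reads in such overlaps may be split or lost.

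Genes around the proteasome were taken from lists of fixed names. Of 12 further proteasome parts and regulators past the count minimum, 0 were called before diet against HE at 1 wkpp, beside 7.42% of all genes, with a median log2 ratio of 0.39, from -0.69 for UBE3C, a ubiquitin ligase of the 26S particle, to 0.97 for TXNL1. POMP, the maturation protein of the core, was 558, 454 and 643 before diet, 393, 286 and 371 in HE and 462, 401 and 675 in LE at 1 wkpp, lower in HE without overlap. ADRM1, a ubiquitin receptor of the 19S base, was 375, 511 and 325 before diet and 547, 473 and 617 in HE. NFE2L1, the factor that drives proteasome genes when the proteasome is inhibited, was 3688, 3871 and 3175 before diet, 3688, 2909.7 and 2987 in HE and 5868, 4189.6 and 4579 in LE at 1 wkpp.

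The 12 ubiquitin genes and enzymes had a median log2 ratio of 0.028 before diet over HE at 1 wkpp and 0.15 for LE over HE at 1 wkpp. The 16 genes of antigen processing and interferon response had -0.71 and -0.71. In both lists 0 genes were called in either comparison, where 7.42% and 0% of all genes were called. At 16 wkpp 1 of them, IRF7, an interferon regulatory factor, was called lower in LE, at 96.1, 137 and 99.4 against 298, 211 and 198 in HE (limma log2 difference -1.17, SE 0.24, adjusted p = 0.00883 for exons and 0.00736 for whole gene reads). In that comparison the list's median log2 ratio was 0.28, with 5 of the 16 higher and 1 lower in LE without overlap, against 23% and 22.6% of all genes, and 6.62% of all genes were called. At 1 wkpp 5 of the 16 were lower and 0 higher in LE than in HE without overlap, against 21.1% and 21.3% of all genes. Their levels varied within HE at 1 wkpp: MX2, an interferon-induced gene, was 577, 48.6 and 51.4, and the highest library was the one with the highest PSMB8.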

How the data were processed

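Total RNA of 15 libraries was made into stranded, ribosomal RNA depleted libraries. Per the submitters' processing notes and the study's methods, the authors used bcl2fastq 2.15.0, cutadapt 1.3, TopHat2 on bosTau8, HTSeq and DESeq2. Whether strand was used in counting is not given in the sources used here. The 6 deposited tables hold, for exons and for entire genes, a mean over 6 libraries of counts divided by DESeq2 size factors, which is the only value used, and the authors' fold changes, standard errors, scores and p-values, which were not used. Values of other samples were in 0 columns.

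A mean over 6 libraries does not show the spread, but 6 means with 15 digits fix the 15 whole read counts of a gene. What 1 read is worth in each library and table was taken from genes read in 1 group only, and the counts were then solved by lattice reduction, accepted at a relative residual below 1e-14. This gave 13885 of 13896 genes for exons and 13876 for entire genes, all 46 members included. As checks, 260 to 357 genes had the same count for exons and entire gene in matching libraries, against at most 55 in others, and size factors recomputed from the counts agreed within 0.487%. On simulated tables, 13881 of 13885 genes were accepted and 0 of them were wrong. No library pair of a group agreed within sampling noise.

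No test had been planned, since single libraries were not expected. Counts were scaled by medians of ratios and fitted with limma 3.58.1 voom in R 4.3.3, on genes with a mean normalised exon count of at least 50. 3 specifications were run, and their counts of members seen before one was chosen: pair by pair, all 15 libraries, and all 15 with sample quality weights. The pair by pair fit at adjusted p below 0.01 in both kinds of reads was kept because the study compares groups in pairs with this limit, although its test was another one, the minimum and the same-sign condition were set here, and it called the fewest members, and the others are reported as alternatives. P-values cover the spread between these libraries only, and treat libraries of different times as independent although they can share cows. On simulated counts the fit by pairs made 1 false call among 8804 unchanged genes. Members, lists and subcomplexes were chosen with earlier results of these data known. Named genes were the induced beta subunits and their counterparts, the activators, the 3 members with the largest and the 3 with the smallest exon ratio in each comparison, and members of counts of 5 or fewer; PSMA4 of the first comparison, PSMC2, PSMC3, PSMC4, PSMC6, PSMD2, PSMD3, PSMD14 and PSMG1, and the genes of the lists, were named after their values were seen. Alternatives were whole gene or exon values alone, other folds, count minimums, scalings, fits and tables, and each library left out. Promoter and protein sequences were not used here. Python 3.11.15, numpy 2.4.6, pandas 2.3.3, scipy 1.17.1 and matplotlib 3.10.9 were used.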

Additional observations from a re-analysis of the deposited data

Results flagged for a closer look

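Spike-in RNA, which the comparisons leave out, took a larger share of the authors' mean exonic counts in the tables with HE libraries than in the table of before diet with LE at 1 wkpp (4.96%). The share was 31% for before diet with HE at 1 wkpp, 39.8% for HE at 1 and 16 wkpp, 18.5% for LE and HE at 16 wkpp and 32.2% for LE and HE at 1 wkpp. Single libraries were not analysed for it, since the most abundant spike-ins were not solved. Groups of 3 libraries were too small for the check on outlying samples.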

How the results depend on the processing

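The count of members called was 0 by pairs in all 6 comparisons, and all other fits were chosen after seeing the data. Counts of all 9015 genes by the same rule stand in brackets. For before diet against HE at 1 wkpp it was 6 (1280) in 1 fit of all 15 libraries, 13 (2085) with sample quality weights and 6 (1845) with exon reads alone, beside 0 (669) by pairs, and at adjusted p below 0.05 7 (1616) by pairs, 18 (3274) with exon reads alone, 13 (2357) in the 15-library fit and 20 (3127) with weights. For LE against HE at 1 wkpp it was 7 (1073) with weights, and at 0.05 9 (1772) with exon reads alone, 6 (1295) in the 15-library fit and 13 (2060) with weights. At 16 wkpp LE against HE gave 1 (1062) with exon reads alone, and at 0.05 3 (1526) by pairs, 6 (2468) with exon reads alone, 1 (1336) in the 15-library fit and 4 (2015) with weights. Before diet against LE gave 1 (536) with weights and 1 (1279) with weights at 0.05. Leaving out each library gave 0 in every comparison; where that left 2 libraries in a group, limma pooled the spread. Counts past 1.5-fold became, at 1.2-fold and at 2-fold, 34 (5351) and 4 (1527) for before diet over HE, 31 (4912) and 0 (941) for LE over HE at 1 wkpp, 28 (3802) and 0 (337) for HE at 1 over 16 wkpp and 19 (4746) and 0 (1093) for LE over HE at 16 wkpp. At 1.2-fold they were 9 (2379) for LE at 1 over 16 wkpp and 2 (2942) for before diet over LE. Whole gene levels alone gave 13 (2023) for HE at 1 over 16 wkpp, exon levels alone 1 (1196) for before diet over LE, no count minimum 1 (2440 of 13641) for LE at 1 over 16 wkpp, and centring on the median of all genes 7 (2416) for LE over HE at 1 wkpp and 1 (980) for before diet over LE. Leaving out 1 library, counts past 1.5-fold ranged over 12 to 20 (before diet over HE), 0 to 1 (before diet over LE), 6 to 14 (HE, 1 over 16 wkpp), 0 to 2 (LE, 1 over 16 wkpp), 9 to 18 and 2 to 5 (LE over HE at 1 and 16 wkpp). These counts moved by 1.5 times or more without the deepest HE library at 1 wkpp, to 14 (1633) for HE at 1 over 16 wkpp, and without the shallowest, to 12 (3086) for before diet over HE and 9 (2291) for LE over HE at 1 wkpp. Without the shallowest HE library at 16 wkpp they were 13 (1548) for HE at 1 over 16 wkpp and 2 (2228) for LE over HE, and without 1 LE library of middle depth at 16 wkpp 3 (2501) for LE over HE. Before diet over LE had 1 without 1 library before diet (1163) or LE (1448), and LE at 1 over 16 wkpp had 2 (1156) and 1 (744) without 1 LE library at 1 and at 16 wkpp. Without overlap in whole gene levels there were 3 for before diet over LE (1 higher and 2 lower, beside 16.4% of all genes), 1 for LE at 1 over 16 wkpp (higher, beside 11.9%) and 11 for LE over HE at 16 wkpp (6 higher and 5 lower, beside 40%). The cause of these moves was not tested.

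The spread of a core or 19S median between libraries was taken as the SD over the 3 libraries of each group of the median over its genes of log2 level relative to the gene's mean, combined over both groups as the root of the summed variances (0.14 to 0.33). Medians moved by less than this SD under every alternative run but 1, the 19S median of LE over HE at 1 wkpp, which was -0.00672 without the shallowest LE library at 1 wkpp. Leaving out 1 library, the core medians ranged over 0.85 to 1.11 for before diet over HE, 0.78 to 0.89 for LE over HE at 1 wkpp and -0.75 to -0.53 for HE at 1 over 16 wkpp, and the 19S medians over 0.092 to 0.27, -0.00672 to 0.23 and -0.35 to -0.16. Single genes near 0, none called by pairs, changed sign. Leaving out 1 library, before diet over HE at 1 wkpp, PSMB8 ranged from -0.47 to 0.42 and PSMB9 from -0.89 to 0.066. LE over HE at 1 wkpp, PSMB8 ranged from -0.26 to 0.64, PSMB9 from -0.77 to 0.11 and PSME1 from -0.017 to 0.34. For HE at 1 over 16 wkpp PSMD11 ranged from -0.057 to 0.29, and for LE at 1 over 16 wkpp PSMC5 from -0.044 to 0.20. PSMB8 of LE over HE at 1 wkpp was -0.00506 scaled by total reads, -0.11 at a minimum of 200 and -0.034 in the 15-library fit. No paired analysis was possible because the tables carry no cow or replicate number, although libraries of different times can share cows. HE libraries had the fewest reads, so their low counts carry the widest error.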

Other observations

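PSMC3IP, which is not a proteasome subunit and stayed below the count minimum, was 25.9, 32.4 and 14 normalised exon counts before diet, 56.3, 72.9 and 80.8 in HE and 36.8, 37.5 and 31.3 in LE at 1 wkpp, and 64.5, 64.2 and 62.3 in HE and 37.4, 33.7 and 31 in LE at 16 wkpp. The 6 HE libraries lay above all 9 others. It was not tested, and it overlaps MLX in the RefSeq annotation of ARS-UCD2.0.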
